A study of Mus musculus with 10 samples.

Results

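The TRIM and PARP genes are 2 large families whose members include many interferon-induced antiviral and immune regulators beside housekeeping ubiquitin ligases and DNA repair enzymes. All genes on the array whose symbol is Trim or Parp followed by a number were taken, 69 of 18193 genes, made up of 58 TRIM and 11 PARP genes. Each gene was read from 1 probe set, the single-symbol probe set with the highest mean over the 10 arrays, so that the choice used no difference between the groups. Levels are log2 RMA signals (a background-corrected, quantile-normalised summary of the probes of a probe set), and a difference of 1 on this scale is a 2-fold change. Levels of different genes were not compared with each other, because probe sets differ in brightness for reasons other than RNA amount.

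The samples were laser-dissected colon tumours of mice of a 129SvEv/C57BL/6/DBA/2 mixed background. Every mouse, in both groups, was 6 to 8 weeks old when it was given a dose of dimethylhydrazine at 44 mg/kg, a carcinogen precursor, and then drank 2% dextran sulfate sodium, which injures the colon, for 7 days. The KO tumours came from vil-Cre-Bcl9-/-/Bcl9l-/- mice, in which a Cre driven by the villin promoter, active in intestinal epithelium, goes with loss of Bcl9 and Bcl9l, the cofactors that bind beta-catenin in Wnt-driven transcription. The WT tumours came from wild-type mice. There were 5 KO tumours (tumours 2 and 6 of mouse 02, tumours 9 and 11 of mouse 04 and tumour 7 of mouse 99) and 5 WT tumours (tumours 1, 3, 12 and 13 of mouse 72 and tumour 8 of mouse 82), with 1 array for each. The protocol text speaks of pooling dissected pieces of a mouse, while the array list gives several tumours per mouse; arrays were taken as listed. The signals of the deleted genes did not show the loss: over 5 probe sets of Bcl9 and Bcl9l the KO mean was higher than the WT mean in 4, with differences from -0.14 to 0.31, and the probe sets used for Bcl9 (difference 0.21; limma adjusted p = 0.410) and Bcl9l (0.13; adjusted p = 0.620) did not pass. Whether these probe sets lie in the deleted parts is not given, so they neither check nor contradict the labels, and KO and WT stand here for tumours labelled so.

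TRIM proteins carry a RING ubiquitin ligase domain, B-boxes and a coiled coil, and the domain after the coiled coil, most often PRY-SPRY, chooses the substrate. Many of them act on nucleic acid sensors, on the signalling that leads to interferon, or on virus particles directly. PARP proteins transfer ADP-ribose from NAD to proteins and nucleic acids: Parp1, Parp2 and Parp3 respond to DNA breaks, while Parp9, Parp11, Parp12 and Parp14 belong to a group of mono-ADP-ribosyltransferases or inactive relatives that interferon induces. In the gut, interferon-induced genes of this kind are found in epithelium and in leukocytes.

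KO tumours had higher levels of 8 of the 52 members that could be tested and lower levels of 2. The higher ones were the PARP genes Parp14, Parp9, Parp12, Parp11 and Parp3 and the TRIM genes Trim21, Trim34a and Trim30a, and the lower ones were Trim2 and Trim62. Trim34a is counted on its brighter probe set; its other probe set was lower in KO, so its direction is not settled. The test was limma across the 12250 genes with a mean of at least 5.82 log2 (the 40th percentile over probe sets), the mouse entering as a random block, and a call needs a Benjamini-Hochberg adjusted p under 0.05. Of all genes tested, 4.16% were higher in KO and 2.93% were lower. Among the PARP genes 5 of 11 were higher and 0 were lower, with a median difference of 0.52. At an unadjusted p under 0.05 in limma, 7 of 11 PARP genes were higher in KO and 0 lower, and 9 of 41 TRIM genes were higher and 2 lower, where 12.8% of all genes tested were higher and 9.58% lower. Among the 41 TRIM genes tested 3 were higher and 2 lower, with a median difference of 0.09, against 0.03 over all genes tested. Mouse 72 was the source of 4 of the 5 WT tumours. Without it 1 WT tumour remained, which leaves little power; all 10 signs were kept, with differences such as 1.56 for Parp14, 1.12 for Trim21, 0.40 for Parp3 and -1.09 for Trim62, and 0 of the 10 passed in limma (adjusted p from 0.0596 to 0.478).

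**Figure D1:**
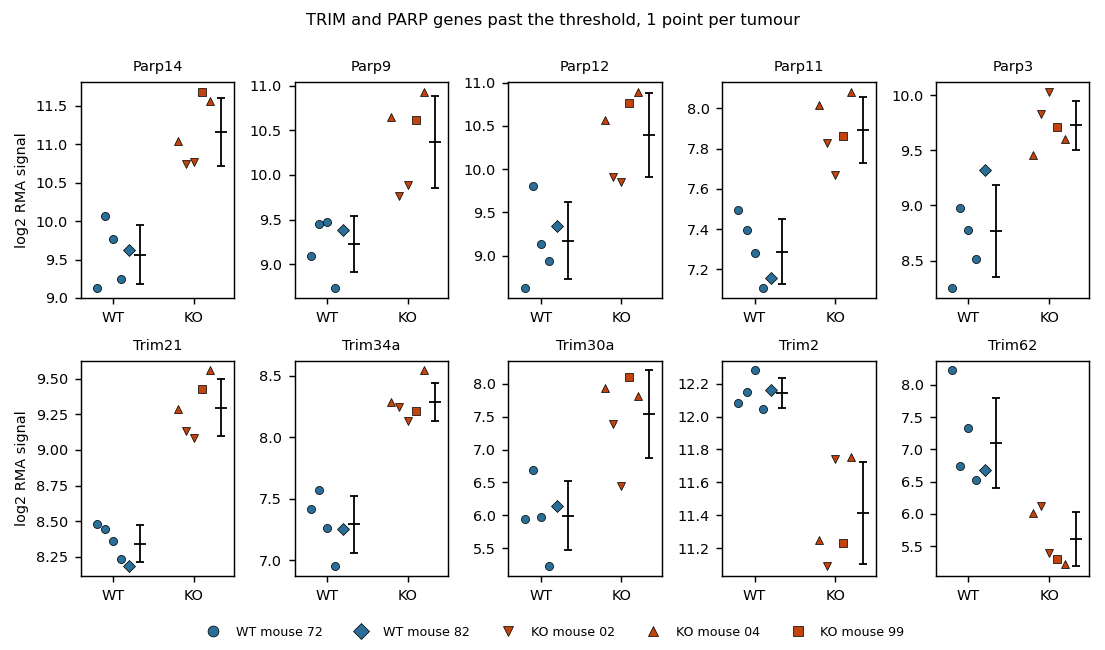
Log2 RMA signal (vertical axis, scaled for each gene) of the 10 TRIM and PARP genes past the threshold in 5 WT and 5 KO tumours; each point is 1 tumour, its shape gives the mouse, and the bar beside the points is the mean ± SD. KO and WT points do not overlap except for Trim30a, where KO tumour 6 of mouse 02 at 6.44 lies below WT tumour 12 at 6.69.

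The promoters of the interferon-responsive members are shown first, because 4 of the 6 higher genes with a RefSeq window hold the core letters of the interferon-stimulated response element. The window runs from before the transcription start to a little after it, in assembly GRCm38.p6. The 90 bases printed run from 60 bases before the start to 30 bases after it, and capitals mark matches to GAAANNGAA (the element's core) or to TTCNNNGAA (the gamma-activated sequence) on either strand, which merge where they overlap.

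Trim21 (chr7:102565453-102565542, minus strand): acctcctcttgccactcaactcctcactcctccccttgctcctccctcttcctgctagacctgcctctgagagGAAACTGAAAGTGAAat
Trim34a (chr7:104244397-104244486, plus strand): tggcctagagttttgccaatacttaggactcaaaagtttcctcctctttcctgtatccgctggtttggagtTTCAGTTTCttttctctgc
Trim30a, first start (chr7:104465164-104465253, minus strand): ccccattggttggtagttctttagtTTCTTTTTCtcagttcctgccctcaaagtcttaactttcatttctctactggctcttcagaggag
Trim30a, second start (chr7:104446096-104446185, minus strand): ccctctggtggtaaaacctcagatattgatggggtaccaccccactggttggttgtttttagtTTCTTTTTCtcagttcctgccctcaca
Parp11 (chr6:127446780-127446869, plus strand): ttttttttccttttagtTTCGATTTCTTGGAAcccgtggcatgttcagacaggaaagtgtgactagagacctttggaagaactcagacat
Trim12c (chr7:104353320-104353409, minus strand): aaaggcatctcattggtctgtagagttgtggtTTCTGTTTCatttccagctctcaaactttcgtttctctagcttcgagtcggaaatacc
Trim12a (chr7:104315466-104315555, minus strand): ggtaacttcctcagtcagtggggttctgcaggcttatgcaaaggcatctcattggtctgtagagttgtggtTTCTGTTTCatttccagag

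The core letters stand in 2 overlapping copies near the start of Trim21, once near each start of Trim30a, and beside an overlapping gamma-activated match in the printed window of Parp11, whose other window held neither motif. The windows of Parp12 and Parp3 held no match to either motif, and Parp14 and Parp9 had no window. A window was at hand for 56 of the 69 members, and by gene 13 of 56 (23.2%) held the core in at least 1 window. Of all 32851 windows of the same length, 8.56% held the core and 8.30% the gamma-activated sequence; the members are counted by gene and some have several windows, which raises their share. Among the 32 members with a window that did not pass the test, 5 (15.6%) held the core. These were Parp4 and the interferon-induced Trim12a, Trim12c, Trim25 and Trim26. The core was thus not limited to interferon-induced members that passed. Of the 16 not tested, 3 held it. For the lower genes, Trim2 held it in 1 of its windows and Trim62 in none. These are letters in a window, and binding at them was not analysed here. Windows of the chromosome 7 genes were compared position by position at the best shift, without gaps. An inserted or lost base breaks such a match, so the shares can understate likeness. Of 28 pairs compared, 24 matched at 31.3% to 53.6% of aligned bases, the pair of Trim30a windows at 53.6% among them, and 4 were closer. The Trim12a window matched that of Trim5, its neighbour, at 241 of 241 aligned bases and that of Trim12c at 72.3%, and the first Trim30a window matched that of Trim30d at 93.6%.

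The interferon-induced members held 7 of the 8 genes called higher, Trim34a with the limit on its direction among them. Of 19 such TRIM and PARP genes listed, 14 were on the array with a probe set of their own and 12 could be tested. Of the 12, 7 were higher in KO, 0 were lower, and the median difference was 0.98. Over all genes tested, 4.16% were higher, 2.93% were lower, and the median difference was 0.03. The list was drawn up with earlier results of these data known. Trim5 and Trim30d fell under the level filter, and Trim30b, Trim30c, Trim34b, Trim38 and Parp10 were not analysed here. Of the 40 tested members outside this list, 1 was higher (Parp3) and 2 were lower, with a median difference of 0.07. The KO and WT tumours did not overlap for 8 of the 12, and for 4 of the 40, where 9.12% of all genes tested did not overlap. Markers of T and NK cells were also higher in KO, with a summed linear signal over the list of 1430 to 2513 in KO and 898 to 1126 in WT tumours, and those of B and plasma cells, a sum of which Jchain alone made up 76.2% to 92.4%, at 4155 to 5985 and 444 to 1355. The mean log2 signal of the B and plasma cell list was 7.03 to 7.62 in KO and 5.31 to 5.97 in WT. The part of leukocytes in the differences of the interferon-induced members was not tested, and in bulk tissue more cells of a type and more RNA per cell cannot be told apart.

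**Figure D2:**
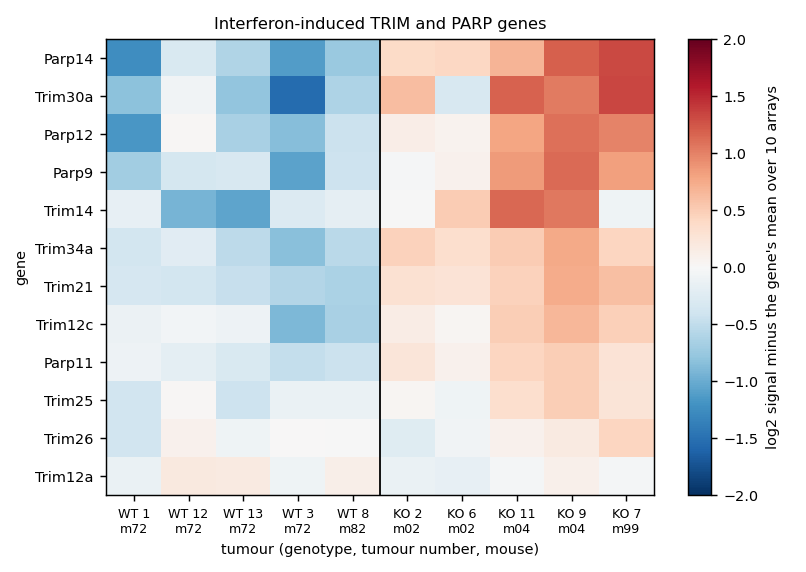
Log2 signal of the 12 tested interferon-induced TRIM and PARP genes (rows, ordered by difference) in each tumour (columns, WT left and KO right of the line, m marks the mouse), drawn as the distance from the gene's mean over the 10 arrays. From the top row down to Parp11, each gene but Trim30a is higher in every KO tumour than in every WT tumour, and the KO tumours of mouse 02 (2 and 6) are paler than the other KO tumours in most rows.

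Parp14 and Parp9, the macrodomain PARPs, were both higher. Parp14, a mono-ADP-ribosyltransferase with macrodomains that modulates cytokine and interferon responses, was at 10.74, 10.78, 11.05, 11.57 and 11.68 in KO tumours 2, 6, 11, 9 and 7. It was at 9.13, 9.25, 9.62, 9.77 and 10.06 in WT tumours 1, 3, 8, 13 and 12. Every KO tumour lay above every WT tumour. The means were 11.16 ± 0.44 and 9.57 ± 0.38 (SD, n = 5 tumours each), a difference of 1.60 ± 0.25 (SE; limma adjusted p = 0.00410), and a second Parp14 probe set differed by 1.48 in the same direction (adjusted p = 0.0169 in a limma fit over all single-symbol probe sets above the filter).

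Parp9, which works with the ubiquitin ligase Dtx3l, was at 9.77, 9.88, 10.62, 10.65 and 10.93 in KO tumours 2, 6, 7, 11 and 9. In WT it ranged from 8.73 in tumour 3 to 9.48 in tumour 13, with 9.10, 9.39 and 9.45 in tumours 1, 8 and 12. The lowest KO tumours, both of mouse 02, stood just above the highest WT tumour. The difference was 1.14 ± 0.25 (SE; limma adjusted p = 0.0237), and it no longer passed when KO tumour 11 or WT tumour 1 was left out. Dtx3l itself, which is no member but lies between Parp9 and Parp14 in the RefSeq gene order of GRCm38.p6, was higher in KO too, at 10.26 ± 0.45 against 9.14 ± 0.15 (SD, n = 5 each; limma adjusted p = 0.00871). The flanking genes Hspbap1 and Kpna1, beside Parp14 and Parp9 on the outer sides, differed by -0.04 and -0.09 and did not pass.

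Parp12 and Parp11, mono-ADP-ribosyltransferases that interferon induces, were higher in KO. Parp12 restricts replication of several viruses, and it was at 9.85, 9.91, 10.57, 10.77 and 10.89 in KO tumours 6, 2, 11, 7 and 9. In WT it was at 8.62, 8.94, 9.14, 9.35 and 9.81 in tumours 1, 3, 13, 8 and 12. The gap between the groups was narrow, WT tumour 12 lying just under KO tumour 6. The difference was 1.22 ± 0.28 (SE; limma adjusted p = 0.0262), and it too lost its call without KO tumour 11 or WT tumour 1.

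Parp11 was at 7.67, 7.83, 7.86, 8.02 and 8.08 in KO tumours 6, 2, 7, 11 and 9 and at 7.11, 7.16, 7.28, 7.40 and 7.50 in WT tumours 3, 8, 13, 12 and 1. All KO tumours were above all WT tumours in a tight spread. The difference was 0.61 ± 0.12 (SE; limma adjusted p = 0.0130). Its second probe set differed by 0.26 (adjusted p = 0.577 in the limma fit over probe sets), so the probe sets of Parp11 did not both pass.

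Trim21, a cytosolic antibody receptor and ubiquitin ligase, had the smallest adjusted p of all members. It was at 9.09, 9.13, 9.28, 9.43 and 9.56 in KO tumours 6, 2, 11, 7 and 9 and at 8.18, 8.24, 8.36, 8.45 and 8.48 in WT tumours 8, 3, 13, 12 and 1. The groups were well apart, each spanning less than their distance. The difference was 0.96 ± 0.12 (SE; limma adjusted p = 0.00136), and the second Trim21 probe set differed by 1.06 (adjusted p = 0.00692 in the limma fit over probe sets).

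Trim30a, a mouse gene that feeds back on inflammatory signalling and restricts viruses, was at 6.44, 7.38, 7.81, 7.94 and 8.11 in KO tumours 6, 2, 9, 11 and 7. In WT it was at 5.22, 5.95, 5.97, 6.15 and 6.69 in tumours 3, 1, 13, 8 and 12. KO tumour 6 fell inside the WT range, and the other KO tumours lay above it. The difference was 1.54 ± 0.35 (SE; limma adjusted p = 0.0274), and it no longer passed without KO tumour 11, WT tumour 1 or WT tumour 13. Trim30d, its close copy, was under the filter, at 4.64 in KO and 5.53 in WT on average, with KO tumours 2 and 6 at 3.75 and 3.83 as the lowest; a probe set that reads Trim30a and Trim30d together was left out, so reads of the copies cannot be fully told apart.

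Trim34a, an interferon-induced PRY-SPRY protein of the same chromosome 7 cluster, gave opposite results with its probe sets. On the probe set used, 1426093_at, it was at 8.13, 8.21, 8.25, 8.29 and 8.55 in KO tumours 6, 7, 2, 11 and 9 and at 6.95, 7.26, 7.27, 7.42 and 7.57 in WT tumours 3, 8, 13, 1 and 12. No KO tumour reached down to the WT tumours, and the difference was 0.99 ± 0.14 (SE; limma adjusted p = 0.00212). On the other, 1424857_a_at, KO was at 4.75 to 5.46 and WT at 6.30 to 7.27, again without overlap but the other way round, with a difference of -1.53 (adjusted p = 0.00245 in the limma fit over probe sets). The mean of both probe sets differed by -0.27 (limma adjusted p = 0.346), so the direction for Trim34a as a gene is not settled by these arrays. Probe sets that read Trim34a together with its copy Trim34b were left out.

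Trim12a and Trim12c, copies in the same cluster related to the retroviral restriction factor Trim5, differed by copy and by probe set. Trim12c was at 8.45, 8.56, 8.89, 8.89 and 9.06 in KO tumours 6, 2, 11, 7 and 9 and at 7.51, 7.76, 8.28, 8.31 and 8.35 in WT tumours 3, 8, 1, 13 and 12. The groups did not overlap, but the difference of 0.74 ± 0.20 (SE) missed the threshold (limma adjusted p = 0.0519); its other probe set differed by 1.01 (adjusted p = 0.0378 in the limma fit over probe sets). Trim12a, on the probe set used, 1420648_at, differed by -0.11 and overlapped fully (limma adjusted p = 0.596). Its other probe set, 1437432_a_at, under the filter, read 3.57 ± 0.21 in KO and 6.35 ± 0.44 in WT (SD, n = 5 each), without overlap and lower in KO; it was not tested. In the RefSeq order of GRCm38.p6 the genes run Trim6, Trim34a, Trim5, Trim12a. Trim6, which makes unanchored ubiquitin chains, differed by 0.73 with overlap (limma adjusted p = 0.301), and Trim5 was under the filter at 3.64 in KO and 3.98 in WT.

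**Figure D3:**
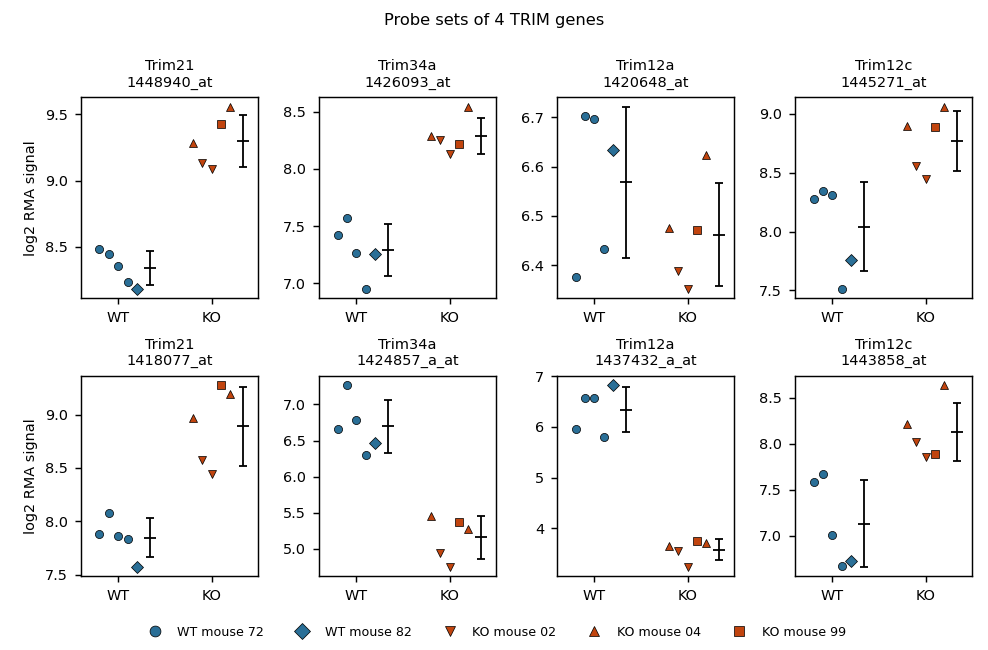
Log2 signal of 2 probe sets each (upper and lower row) of Trim21, Trim34a, Trim12a and Trim12c in 5 WT and 5 KO tumours; each point is 1 tumour, its shape gives the mouse, the bar is the mean ± SD, and each panel has its own vertical scale. The probe sets of Trim21 and of Trim12c run the same way, those of Trim34a run opposite ways, and Trim12a differs on the lower probe set only, where KO lies near 3.57 and WT near 6.35.

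Over all members, the other single-symbol probe sets of the genes called higher had the sign of the chosen probe set in 6 of 7 cases, and those of the genes called lower in 7 of 7. For members that did not pass, 32 of 39 had the same sign, and for members not tested 5 of 10. The exception among the higher genes is the probe set of Trim34a.

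The remaining interferon-induced members did not pass. Trim14, which has no RING domain and helps antiviral signalling at mitochondria, was at 7.38 to 8.60 in KO and 6.41 to 7.30 in WT without overlap, a difference of 1.02 ± 0.30 (SE; limma adjusted p = 0.0700). Trim25, the ubiquitin ligase that acts on the RNA sensor RIG-I, differed by 0.41 ± 0.14 (SE; limma adjusted p = 0.108) and its tumours overlapped. Trim26, a ligase linked to the antiviral response, differed by 0.15 (limma adjusted p = 0.583). Within the KO group the tumours of mouse 02 were the lowest for 10 of the 12 tested interferon-induced members, and for 8 of the 40 others tested. The mean log2 signal over the 12 was 8.80 and 8.86 in these 2 tumours, 9.27, 9.27 and 9.45 in the other KO tumours, and 8.05 to 8.52 in WT tumours.

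Parp3 was the only member outside the interferon list that was higher in KO. Parp3, which like Parp1 and Parp2 responds to DNA breaks, was at 9.46, 9.60, 9.71, 9.83 and 10.03 in KO tumours 11, 9, 7, 2 and 6. It was at 8.25, 8.52, 8.77, 8.98 and 9.32 in WT tumours 1, 3, 13, 12 and 8. Here the tumours of mouse 02 were the highest in KO, unlike the genes above. The difference was 0.94 ± 0.20 (SE; limma adjusted p = 0.0212), a second probe set differed by 0.83 (adjusted p = 0.0142 in the limma fit over probe sets) and the last by 0.24 (adjusted p = 0.304), and the call was lost without KO tumour 6. All 3 probe sets of Parp3 (1426210_x_at, 1451969_s_at and 1445888_x_at) are x_at or s_at sets, so Parp3 had no value when such sets were left out.

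Parp1, the main sensor of DNA strand breaks, was at 8.72 to 9.61 in KO and 9.10 to 10.04 in WT, a difference of -0.46 ± 0.22 (SE; limma adjusted p = 0.256). Parp2, its close partner, was at 8.66 to 9.11 in KO and 8.41 to 8.86 in WT (difference 0.20; limma adjusted p = 0.382). Both overlapped between groups. Of 8 further genes of break repair that act with Parp1, such as Xrcc1 and Polb, 0 passed in limma; at an unadjusted p under 0.05, 1 was higher and 1 lower, near the shares of 12.8% and 9.58% over all genes.

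Among the other PARP genes, Parp16, an enzyme of the endoplasmic reticulum, was at 6.65 to 7.15 in KO and 6.14 to 6.58 in WT without overlap and missed the threshold narrowly (difference 0.52 ± 0.14 SE; limma adjusted p = 0.0510). Parp8 differed by 0.45 (limma adjusted p = 0.171), Parp4, the vault PARP, by 0.23 (adjusted p = 0.397) and Parp6 by 0.06 (adjusted p = 0.885). Of the 11 PARP genes 10 had a positive difference, Parp1 being the exception.

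**Figure D4:**
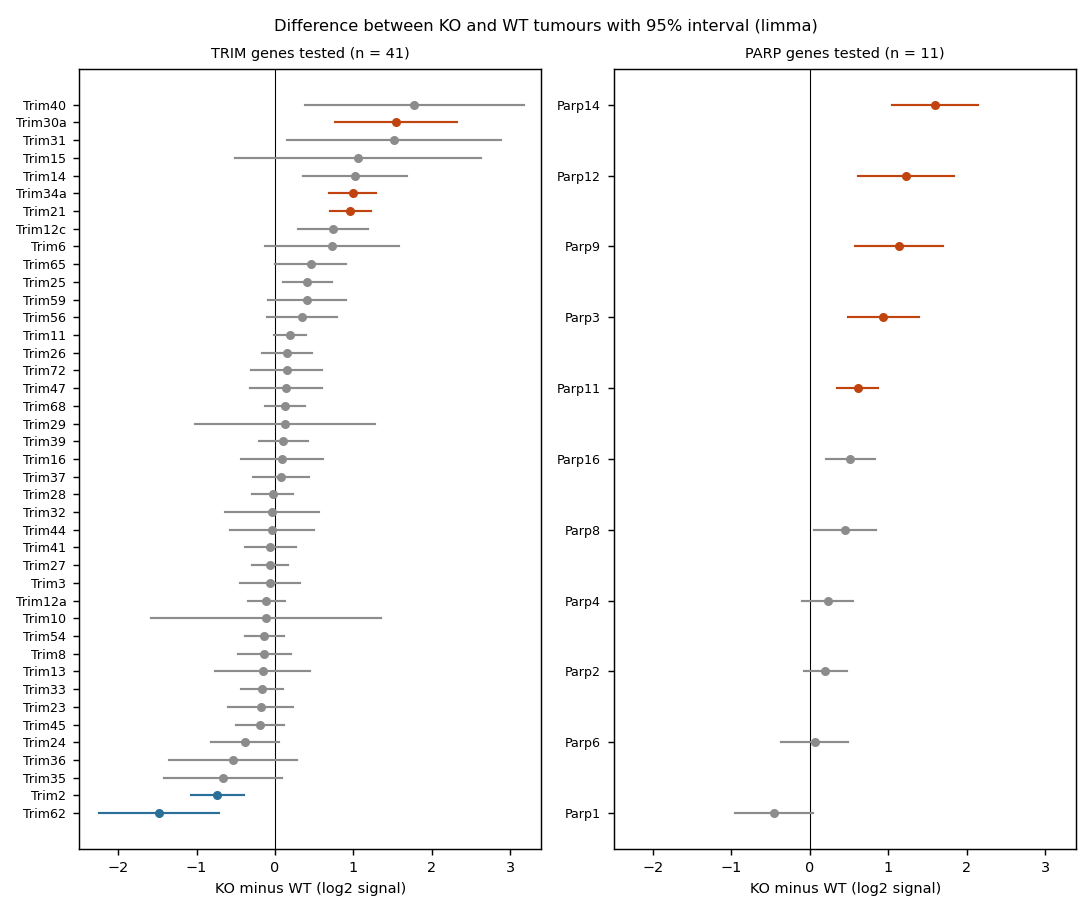
Difference KO minus WT in log2 signal (horizontal axis) with its 95% interval from limma for the 41 TRIM genes (left) and the 11 PARP genes (right) tested; red marks genes called higher, blue genes called lower and grey those that did not pass. The PARP genes lie right of 0 except Parp1, while the TRIM genes spread to both sides, from Trim62 at -1.48 to Trim40 at 1.78.

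The TRIM genes lower in KO were Trim2 and Trim62. Trim2, an NHL-repeat ubiquitin ligase known from neurons, was at 11.09, 11.23, 11.25, 11.74 and 11.75 in KO tumours 2, 7, 11, 6 and 9. It was at 12.05, 12.08, 12.15, 12.16 and 12.28 in WT tumours 3, 1, 12, 8 and 13. The WT tumours were tightly grouped and all above the KO tumours. The difference was -0.73 ± 0.15 (SE; limma adjusted p = 0.0186), and the 5 other Trim2 probe sets were lower in KO by 0.52 to 0.66 on average, of which 4 were tested and 0 passed in limma. The other NHL-repeat genes tested, Trim3 and Trim32, differed by -0.06 and -0.04 and did not pass.

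Trim62, a PRY-SPRY ubiquitin ligase linked to epithelial polarity, was at 5.23, 5.30, 5.39, 6.01 and 6.12 in KO tumours 9, 7, 6, 11 and 2. It was at 6.53, 6.68, 6.74, 7.32 and 8.22 in WT tumours 3, 8, 12, 13 and 1. The groups did not overlap, and the KO mean of 5.61 lay under the level filter, which the gene passed through its WT level. The difference was -1.48 ± 0.35 (SE; limma adjusted p = 0.0293), and it lost its call without KO tumour 6 or WT tumour 13. The other Trim62 probe sets were under the filter and differed by -0.28 and -0.08.

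The TRIM genes were also counted by structure. Of the 20 tested TRIM genes with PRY-SPRY as their only domain after the coiled coil, 3 were higher and 1 lower. Their median difference was 0.15, and 4.16% of all genes tested were higher and 2.93% lower. The 3 higher ones, Trim21, Trim30a and Trim34a, are all interferon-induced members, and the direction of Trim34a is not settled. At an unadjusted p under 0.05 in limma, 6 of the 20 were higher and 1 lower. Of the 3 tested genes with PHD finger and bromodomain, chromatin regulators, 0 passed in limma: Trim24 differed by -0.38 (adjusted p = 0.285), Trim33 by -0.16 (adjusted p = 0.464) and Trim28, the repressor of transposable elements, by -0.03 (adjusted p = 0.920). Of the 9 genes that act in repression with Trim28, 0 passed in limma, and 2 were lower at an unadjusted p under 0.05, against 9.58% of all genes. Of the COS-box genes, which bind microtubules, Trim36 differed by -0.54 (limma adjusted p = 0.433) and Trim54 by -0.13 (adjusted p = 0.543). Of the 4 genes with a MATH, ARF or transmembrane end, 0 passed in limma, with Trim59 the highest at 0.41 (adjusted p = 0.324), Trim23 at -0.18 (adjusted p = 0.623) and Trim13 at -0.16 (adjusted p = 0.782). Of the 9 with no further domain or no RING, 0 passed. At an unadjusted p under 0.05, 3 of these 9 were higher, and of the 3 PHD, 2 COS-box and 4 MATH, ARF or transmembrane genes 0 were higher or lower, against 12.8% higher and 9.58% lower over all genes; groups this small give few calls at that share.

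The widest spread among KO tumours belonged to 4 TRIM genes that neighbour each other in the RefSeq order of GRCm38.p6, Trim15, Trim10, Trim40 and Trim31. Their ranges were 2.55 to 3.13 over the 5 KO tumours, where the next widest member, Trim35, spanned 1.81, and 2.38 to 2.73 over the 5 WT tumours, where Trim29 spanned 2.54. Trim31 and Trim40, ubiquitin ligases known from gut epithelium, differed by 1.52 ± 0.62 (SE; limma adjusted p = 0.175) and 1.78 ± 0.63 (adjusted p = 0.126). Trim40 was at 10.35, 10.60 and 10.85 in KO tumours 7, 9 and 11 and at 8.30 and 8.998 in KO tumours 2 and 6. In WT it was at 6.40 in tumour 1, 7.78 in tumour 13, 7.87 in tumour 3, 8.92 in tumour 8 and 9.13 in tumour 12. For Trim40 the KO tumours of mouse 02 thus fell within the WT range. For Trim31, KO tumour 2 at 7.50 did so, while KO tumour 6 at 8.999 lay above the highest WT tumour at 8.64. Without mouse 02 both genes passed in limma (difference 2.55, adjusted p = 0.0446 for Trim40 and 2.25, adjusted p = 0.0476 for Trim31). Mouse 02 holds the lowest KO values of both genes, so leaving it out raises the difference by itself, and these passes add no support. Trim15 and Trim10, the other 2, differed by 1.06 and -0.11 and did not pass (limma adjusted p = 0.423 and 0.943). In tumour 1, which had the lowest signal of all 10 for Trim15, Trim31 and Trim40, Trim10 was at 6.83, among the higher values.

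**Figure D5:**
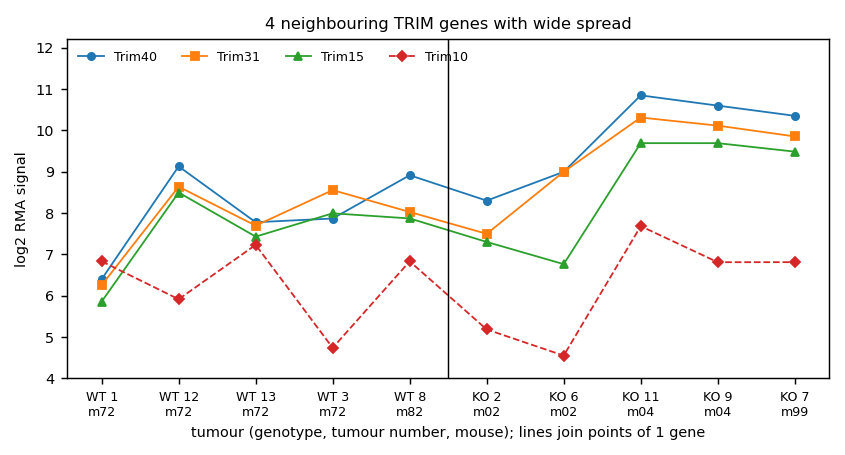
Log2 signal (vertical axis) of Trim40, Trim31, Trim15 and Trim10 in each tumour (horizontal axis, WT left and KO right of the line, m marks the mouse); the lines join the points of a gene and carry no order in time. KO tumours 11, 9 and 7 are high for the first 3 genes, and KO tumours 2 and 6 lie within or near the range of the WT tumours.

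The 17 members under the level filter were all TRIM genes, and 16 of them stayed under the threshold when the filter was dropped. Trim46, a microtubule organiser of axons, was the exception: it was at 5.39 to 6.15 in KO and 4.04 to 4.72 in WT without overlap, means of 5.65 and 4.25, and was not tested with the filter in place. With no level filter its difference was 1.40 ± 0.18 (SE; limma adjusted p = 0.00169). Next came Trim5, with a difference of -0.36 (adjusted p = 0.136), Trim7 with -0.21 (adjusted p = 0.211) and Trim30d with -0.88 (adjusted p = 0.259).

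Genes that work with these families were read from lists. Of 9 tested relatives that carry other names, 1 was higher in KO, Rnf135, a ligase of RIG-I (8.65 ± 0.28 against 7.79 ± 0.19, SD, n = 5 each; limma adjusted p = 0.0105). Zc3hav1, the antiviral zinc finger PARP, missed the threshold (difference 0.50; limma adjusted p = 0.0574), and the tankyrase Tnks2 did not pass (difference -0.35; adjusted p = 0.120). Of 8 genes of ADP-ribose removal and their partners, Dtx3l alone passed. Of 12 nucleic acid sensing genes 3 were higher and 0 lower: the Z-nucleic acid sensor Zbp1 by 2.63 ± 0.40, the RNA sensor Ifih1 by 1.24 ± 0.28 and the double-stranded RNA receptor Tlr3 by 0.76 ± 0.18 (SE; limma adjusted p = 0.00385, 0.0272 and 0.0321). Of 12 interferon signalling genes 4 were higher and 0 lower: the transcription factors Irf1 (difference 1.76), Irf9 (0.80), Stat2 (1.14) and Irf8 (1.01), with limma adjusted p of 0.000301, 0.0156, 0.0159 and 0.0317. The receptor subunits Ifngr1, Ifngr2, Ifnar1 and Ifnar2 did not pass. Of all genes tested, 4.16% passed as higher and 2.93% as lower. At an unadjusted p under 0.05 in limma, the nucleic acid sensing and interferon signalling lists each had 5 genes higher and 1 lower. Over all genes tested these shares were 12.8% and 9.58%.

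The marker lists behind these sums were read gene by gene, beside 4.16% of all genes tested that passed as higher and 2.93% as lower. Of 13 T and NK cell markers on the array 9 were tested, and 6 of these were higher in KO. Among them were the coreceptor gene Cd8a at 8.48 ± 0.42 against 5.77 ± 0.27 and the granzyme gene Gzmb at 6.91 ± 0.54 against 5.08 ± 0.48 (SD, n = 5 each). The WT means of Cd8a and Gzmb, and of Ccl5, Cd3g and Cd2, lay under the level filter, which these genes passed through their KO level. Cd3e, Cd8b1, Nkg7 and Klrd1 were under the filter and not tested. All 4 tested B and plasma cell markers were higher, among them Jchain, which joins secreted antibodies, at 12.08 ± 0.20 against 9.37 ± 0.82. The WT means of the others, Mzb1, Cd79a and Cd79b, lay under the filter, and Ms4a1 was under it and not tested. Of 8 macrophage markers 1 was higher, the endotoxin coreceptor gene Cd14. Of 10 epithelial markers 0 passed in limma, 2 being higher and 1 lower at an unadjusted p under 0.05, and their summed signal was 57321 to 63818 in KO and 45568 to 65900 in WT, so epithelial markers of the labelled tissue were present in both groups. Of the tested fibroblast (7), smooth muscle (6), endothelial (6) and striated muscle (2) markers 0 passed in limma, with 0 higher and 2 lower at an unadjusted p under 0.05. At that unadjusted p, 12.8% of all genes tested were higher and 9.58% lower.

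The unique numbers at the end of the labels fall into a lower and an upper range, split unevenly: the lower range holds 1 KO and 4 WT tumours and the upper 4 KO and 1 WT. The sample titles give the unique number as the tumour, while the tumour numbers used here come from another part of the labels. What the ranges stand for is not given. All 10 called members kept their sign within each range, as these limma differences show. In the lower range the differences were 2.00 for Parp14, 1.35 for Parp9, 1.46 for Parp12, 0.63 for Parp11, 0.81 for Parp3, 1.12 for Trim21, 0.95 for Trim34a, 2.10 for Trim30a, -0.93 for Trim2 and -1.52 for Trim62. In the upper range they were 1.91, 1.21, 1.68, 0.40, 1.48, 0.78, 0.88, 1.45, -0.63 and -2.54 in the same order of genes. Each range has 1 tumour in a group, so these are values of direction and size, and which of them pass says little. With the range as a covariate, 8 of the 10 passed and Parp11 and Trim2 did not.

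Tumours of a mouse are not independent, and only 3 KO and 2 WT mice were sampled. When each mouse was reduced to its mean, Parp14, Trim21, Trim34a and Trim62 passed (limma adjusted p = 0.0401, 0.0337, 0.0255 and 0.0362). Parp9, Parp12, Parp11, Parp3, Trim30a and Trim2 did not, with adjusted p from 0.0513 to 0.184, and all 10 kept their sign.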

How the data were processed

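Per the submitters' processing notes, the authors made the deposited values with RMA (version not given): log2 signals per probe set on Affymetrix mouse arrays. The values were used as deposited. Of 45101 probe sets, 34945 had 1 gene symbol in the platform annotation, updated by Entrez identifier, and 932 had several and were left out. Array medians ran from 6.43 to 6.50 log2, and the 10 arrays limit the precision. KO and WT tumours were compared with lmFit and eBayes of limma 3.58.1 under R 4.3.3; the mouse was a random block through statmod 1.5.0 (consensus correlation 0.0586), and p-values were adjusted by Benjamini-Hochberg over the 12250 genes tested. Nothing shows that tumours of a mouse arose independently, so the p-values measure the spread between these tumours. The fit was tested on simulated data. Promoter windows came from RefSeq (GRCm38.p6); the files name no build.

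The members and lists were chosen with earlier results of these data known. The text names every member past the threshold, every interferon-induced member, Parp1, Parp2 and Parp3, up to 3 members of each structural list with the smallest p, and, of other lists, the genes that passed and up to 2 more; further members were named after their values were seen. Alternatives left out the block, used mouse means, added the number range or the 3′ to 5′ difference, took each range alone, changed the level filter, probe set rule, scaling (median centring, cyclic loess), eBayes options or array weighting, asked for a fold of at least 2, or left out each tumour or mouse.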

Additional observations from a re-analysis of the deposited data

Results flagged for a closer look

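In 10 of 160 groups of 5 tumours examined, 1 tumour stood apart from the other 4 by Dixon's criterion; chance alone gives about 1 in 20. In KO tumour 2, Trim35 was at 8.89 while the rest of the KO group lay at 7.09 to 7.44, and Trim47 was at 6.86 against 5.81 to 6.07. The same tumour had the lowest KO value of Irf1, at 11.59 against 12.10 to 12.26. In KO tumour 7, Trim8 was at 10.31 against 10.65 to 10.76, and 3 genes under the level filter were high: Trim42 at 3.44, Trim69 at 4.73 and Trim75 at 4.24. In WT, Trim27 was at 11.91 in tumour 3 against 11.73 to 11.75, Trim46 was at 4.72 in tumour 13, the highest of its group, and Trim60 was at 4.93 in tumour 13, the lowest. Without KO tumour 2, Trim35 passed as lower in KO in limma (difference -0.998 in place of -0.66; adjusted p = 0.00420 and 0.284). KO tumour 2 holds the highest KO value of Trim35, so leaving it out lowers the KO mean by itself, and this pass adds no support. With all tumours, a second Trim35 probe set was lower in KO without overlap (difference -0.48; adjusted p = 0.0199 in the limma fit over probe sets), and the remaining one did not pass (-0.09; adjusted p = 0.755).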

How the results depend on the processing

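The counts were 3 TRIM genes higher, 2 TRIM genes lower, 5 PARP genes higher and 0 PARP genes lower in KO in limma, and PARP genes lower stayed at 0 under every alternative. TRIM genes higher numbered 5 with no block for the mouse, 5 with array weights, 5 without mouse 02, 1 in the upper number range, 1 at a fold of at least 2, and 0 both in the lower number range and without mouse 72. TRIM genes lower numbered 1 over mouse means, with the number range as a covariate, in the upper range, with a filter at the 60th percentile, with the mean of all probe sets, with no x_at or s_at probe sets, with the 3′ to 5′ covariate, without mouse 04 and at a fold of at least 2, and 0 in the lower range and without mouse 72. PARP genes higher numbered 1 over mouse means, 2 in the upper range, 2 without mouse 04, 3 with the 3′ to 5′ covariate, 3 at a fold of at least 2, and 0 in the lower range and without mouse 72. The 3′ to 5′ difference was 0.71 to 1.17 in KO arrays and 0.78 to 1.14 in WT arrays, and with it Parp9, Parp12, Trim30a and Trim62 lost their calls. Leaving out 1 tumour gave 2 to 4 TRIM genes higher, 1 to 3 lower and 3 to 6 PARP genes higher. A lone range, or no mouse 72, leaves 1 tumour in a group, which is assumed to vary like the rest. With the filter at the 60th percentile and with the mean of all probe sets, Trim62 fell under the filter and was not tested. Its absence from the count of lower TRIM genes there is thus no failed test. The cause of the other changes was not tested.

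Trim34a reversed with the mean of all probe sets (-0.27) and on probe set 1424857_a_at (-1.53). Of the 10 genes called, 9 kept their sign under every alternative in which they had a value, Trim34a being the exception. With single probe sets left aside, Trim62 had a value in 28 alternatives, Parp3 and Trim30a in 29 and the other called genes in 30. No paired analysis was possible because the KO and WT tumours came from different mice. Signal over background was not analysed here, so a low level, such as that of Trim62 in KO, may be near background.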
